A study of Malus domestica with 15 samples.

Results

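Of 80965 loci in the skin of stored apples (Malus domestica), 33 met a rule for levels above harvest in fruit treated with 1-methylcyclopropene (1-MCP). Under this rule control fruit leaving cold storage exceeded the harvest level by less or lay below it. The loci were chosen from the values themselves. A locus had to carry an apple gene model (an MDP number), to be at 0 in none of the groups and to average at least 1 FPKM, which 30310 loci did. FPKM counts the fragments per kilobase of a transcript, relative to all mapped fragments, so that levels of different loci can be compared. On the scale of log2(FPKM + 1), 1-MCP fruit had to exceed harvest by at least 1.5 both after cold storage and after shelf life. Control fruit had to exceed harvest by less than 0.75 after cold storage, and within each treatment the values before and after shelf life had to lie within 1. Because these conditions use all 5 groups, the levels and differences of the 33 loci are given as a description, with no test.

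1-MCP is a gas that occupies the receptors for ethylene and keeps that hormone from acting. Ethylene drives the ripening of apples, which are climacteric fruit, and receptors that hold no ethylene repress the pathway, so genes that ethylene activates stay low under 1-MCP. Scald, a storage disorder in which the skin turns brown, is known to be reduced by blocking ethylene action, and scald resistance under ethylene inhibition is what the series is about. Ethylene signalling is known to repress some genes as well as to activate others.

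The groups were 1-MCP fruit after 2 months of cold storage, 1-MCP fruit after those 2 months and 7 days of shelf life, control fruit at the same 2 times, and control fruit at harvest. The final concentration of 1-MCP was 0.7 µl/L. The series holds 15 samples, 3 in each of the 5 groups, which the labels call biological replicates. The table gives 1 FPKM value per group and none per library, so no SD, p-value or replicate check was possible for any value below, and library depth is unknown. The harvest fruit had neither been stored nor treated, so in 1-MCP fruit the treatment, the cold and the time of storage cannot be told apart from harvest alone. In bulk skin, more cells of a type and more RNA per cell cannot be told apart. The table pairs no identifier with a gene name, and of its 63541 gene model identifiers 0 matched the RefSeq genes of apple assembly GDT2T_hap1. No function can therefore be given to any locus, no skin markers could be read, and the loci are called by their identifiers (CUFF for an assembled locus, MDP for a gene model). The libraries were not stranded, so overlapping transcripts on opposite strands share their reads.

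By their median level, though not in every member, the 33 loci lay below the 30310 loci in untreated fruit and above them with 1-MCP. Their median level was 18.8 FPKM in 1-MCP fruit at both times, 5.53 FPKM in control fruit after cold storage, 6.34 FPKM in control fruit after shelf life and 4.18 FPKM at harvest. The 30310 loci with the same filter had medians of 10.3 and 9.19 FPKM in 1-MCP fruit after cold storage and after shelf life, 9.79 and 7.98 FPKM in control fruit at these times, and 11.1 FPKM at harvest. At harvest 19 of the 33 were below 5 FPKM, whereas in 1-MCP fruit 1 was, at each of the 2 times. Of the 30310 loci, 8782 were below 5 FPKM at harvest, and 9459 and 10455 in 1-MCP fruit after cold storage and after shelf life. The conditions require a rise from harvest, so a lower count of members in 1-MCP fruit is built in. No member reached 100 FPKM in control fruit or at harvest, and 6 of them did so in 1-MCP fruit at both times. After cold storage and after shelf life, 2313 and 2153 of the 30310 loci reached 100 FPKM in 1-MCP fruit and 2363 and 2090 in control fruit. At harvest 2448 did. Together the 33 loci held 0.0821% of the summed FPKM of the table in 1-MCP fruit after cold storage and 0.0856% after shelf life, against 0.0167% and 0.0146% in control fruit and 0.0162% at harvest.

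The conditions leave only the control value after shelf life free to pass a treated value, and by little. In all 33 loci the lower of the 2 values of 1-MCP fruit lay above the highest value of control fruit and harvest. The ratio of these 2 values had a median of 2.71 and ran from 1.47 to 25.3, and it was at least 2 in 28 loci. How wide this gap is beside the spread between libraries is not known.

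**Figure D1:**
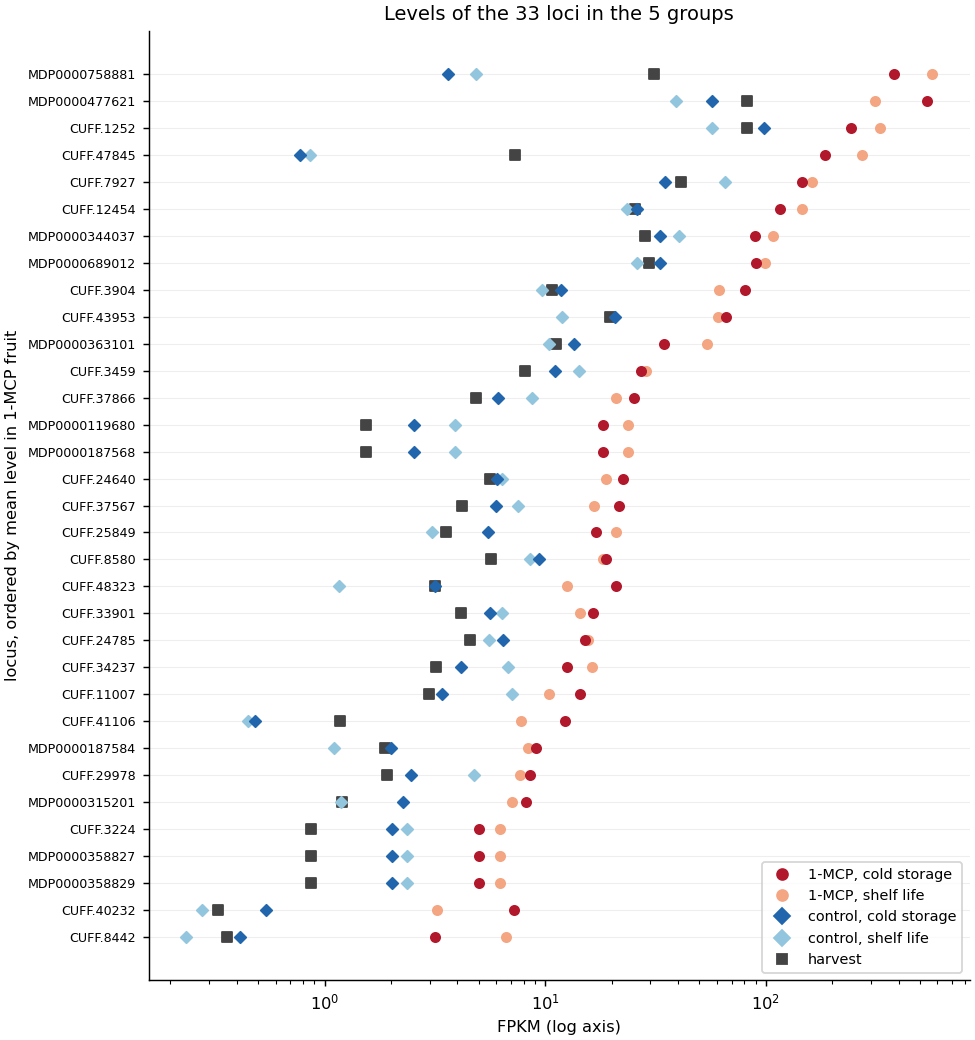
FPKM (log axis) of each of the 33 loci, 1 row per locus in the order of their mean level in 1-MCP fruit, with circles for 1-MCP fruit, diamonds for control fruit and squares for harvest. In every row both circles lie to the right of the other 3 points, an order that the conditions nearly fix. The margin is widest (25.3 times) in CUFF.47845 and narrowest (1.47 times) in CUFF.11007.

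Against harvest, 1-MCP fruit had a median log2 difference of 1.81 over the 33 loci after cold storage (range 1.54 to 4.49) and 1.91 after shelf life (1.53 to 5.04). These are differences of log2(FPKM + 1), which understate the change of loci at low FPKM. In FPKM itself the median ratio was 4.87 after cold storage (2.95 to 25.3) and 4.44 after shelf life (3.09 to 37.3). All 33 exceed a log2 difference of 1 by construction, as did 5.12% of the 30310 loci after cold storage and 3.09% after shelf life. A difference of at least 1.5 was held by 1.74% of the loci after cold storage and 1% after shelf life. The medians over all 30310 loci were -0.05 and -0.16.

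Few members lay far from the rest. At 26 of the 33 the smaller of the 2 differences from harvest was under 2, so 7 loci exceeded 2 at both times, and 2 of these exceeded 3.

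CUFF.47845, which carries gene model MDP0000133306, had the largest differences. It stood at 185 and 272 FPKM in 1-MCP fruit after cold storage and after shelf life, at 0.773 and 0.858 FPKM in control fruit, and at 7.29 FPKM at harvest. The log2 difference from harvest was 4.49 and 5.04 in 1-MCP fruit, and -2.23 and -2.16 in control fruit. The gap between treatments came to 239-fold in FPKM after cold storage and 317-fold after shelf life. Both ratios divide by control values below 1 FPKM, whose precision is not known. The control difference from harvest after cold storage was -3.08 with a pseudocount of 0.1 and -1.09 with one of 5. Storage thus went with opposite directions in the 2 treatments, and both control values lay below harvest.

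MDP0000758881, a gene model without an assembled locus, had the same shape at a higher level. It stood at 383 and 568 FPKM in 1-MCP fruit, at 3.64 and 4.86 FPKM in control fruit, and at 31.0 FPKM at harvest. Its log2 difference from harvest was 3.58 and 4.15 in 1-MCP fruit, and -2.79 and -2.45 in control fruit. In FPKM, treated fruit exceeded control fruit 105-fold after cold storage and 117-fold after shelf life. In both of these loci 1-MCP fruit were higher after shelf life than after cold storage, by a ratio of 1.47 in CUFF.47845 and 1.49 in MDP0000758881, and control fruit after cold storage were at 0.106 and 0.117 of the harvest level.

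A second tier held larger differences with control fruit close to harvest. CUFF.3904 (MDP0000344696) stood at 80.8 and 61.3 FPKM in 1-MCP fruit, at 11.8 and 9.72 FPKM in control fruit, and at 10.8 FPKM at harvest, so its 2 control values lay close to the harvest value. CUFF.12454 (MDP0000165846) stood at 116 and 146 FPKM in 1-MCP fruit, at 26.1 and 23.4 FPKM in control fruit, and at 25.4 FPKM at harvest. In both loci control fruit differed from harvest by -0.14 to 0.12 on the log2 scale, and treated fruit were several times higher. The sign of the control difference after shelf life depends on the scaling of the columns, since with equal trimmed means it was 0.24 in CUFF.3904 and 0.28 in CUFF.12454.

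MDP0000477621 held the highest level of any member in 1-MCP fruit after cold storage, 536 FPKM, with 311 FPKM after shelf life. Control fruit stood at 56.8 and 39.2 FPKM at these times and harvest fruit at 82.1 FPKM. Both treatments were lower after shelf life than after cold storage, and the log2 difference of control fruit from harvest reached -1.05 after shelf life. That difference was -0.64 with equal trimmed means. This locus and MDP0000758881 alone made up 40.3% of the members' summed FPKM in 1-MCP fruit after cold storage.

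The other abundant members lay nearer to the conditions that chose them. CUFF.1252 (MDP0000268026) stood at 243 and 330 FPKM in 1-MCP fruit, at 98.6 and 57.0 FPKM in control fruit, and at 82.5 FPKM at harvest. CUFF.7927, which carries MDP0000353400 and MDP0000353971, stood at 146 and 163 FPKM in 1-MCP fruit, at 35.0 and 65.1 FPKM in control fruit, and at 41.2 FPKM at harvest. Control fruit were lower after shelf life than before it in CUFF.1252 and higher in CUFF.7927.

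The 12 members outside the rule for named loci, which took mostly extremes, formed the moderate part of the set. They ran from 5.02 to 89.8 FPKM in 1-MCP fruit after cold storage and from 6.21 to 108 FPKM after shelf life. Their highest levels were 33.2 and 40.6 FPKM in control fruit at these times and 29.5 FPKM at harvest. Treated fruit exceeded harvest by a ratio of 3.04 to 6.86 after cold storage, and exceeded control fruit of that time by 2.49 to 4.57. After shelf life the ratio to control fruit had a median of 2.64. In all 12, control fruit after cold storage were above harvest, by 0.06 to 0.70 on the log2 scale. The members below harvest at that time were all among the named, so the naming left only this sign. The values 0.70, 5.02 and 6.21 are those of MDP0000358827 and MDP0000358829, which copy the named CUFF.3224.

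Some sets of values occurred more than once in the table under different identifiers. MDP0000119680 and MDP0000187568 had the same values in all 5 groups, standing at 18.3 and 23.6 FPKM in 1-MCP fruit, at 2.55 and 3.90 FPKM in control fruit, and at 1.54 FPKM at harvest. CUFF.3224 (MDP0000358828, MDP0000866256 and MDP0000499032), MDP0000358827 and MDP0000358829 likewise shared all their values, at 5.02 and 6.21 FPKM in 1-MCP fruit, at 2.02 and 2.37 FPKM in control fruit, and at 0.864 FPKM at harvest. With identical rows counted once, the 33 loci are 30 distinct sets of values. Rows with a copy made up 5 of the 33 members (15.2%) and 852 of the 30310 loci (2.81%), and whether the copies are separate genes was not tested.

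The 2 identical gene models were among the largest differences, at 2.93 and 3.28 above harvest on the log2 scale in 1-MCP fruit and at 0.48 and 0.95 in control fruit. Control fruit thus leaned the same way as treated fruit in this set of values, at a smaller size.

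**Figure D2:**
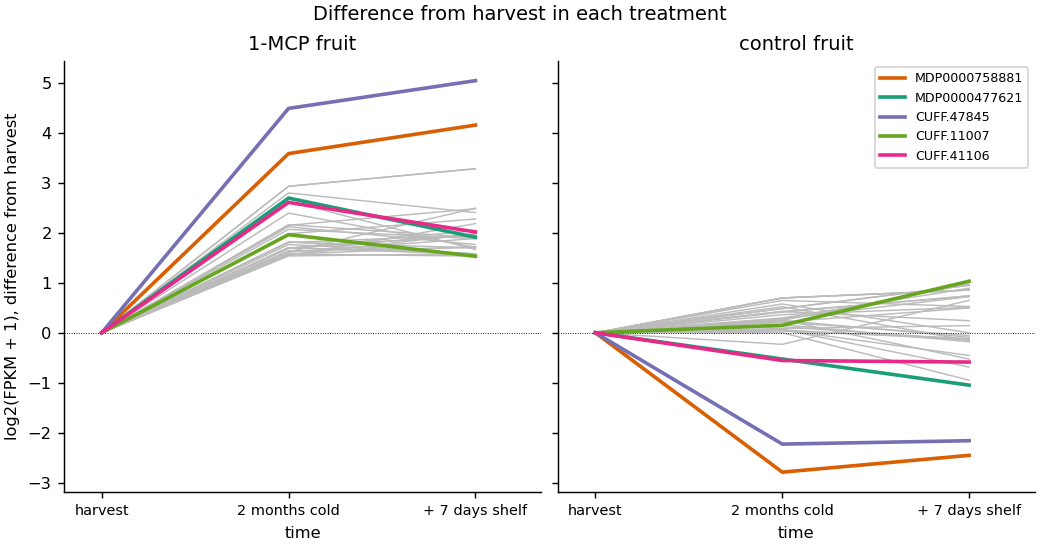
Difference of log2(FPKM + 1) from harvest at the 3 times (harvest, 2 months in the cold, 7 more days on the shelf) for 1-MCP fruit (left) and control fruit (right), 1 line per locus, with 5 loci in colour. CUFF.47845 and MDP0000758881 are the 2 highest lines in 1-MCP fruit and the 2 lowest in control fruit, and CUFF.11007 ends highest in control fruit at 1.03.

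Control fruit lay within 0.5 of harvest on the log2 scale in most members after cold storage, but not all alike. After cold storage their log2 difference from harvest had a median of 0.25 and ran from -2.79 to 0.70, the upper end being set by the rule. It was above 0 in 28 loci and below 0 in 5, in 2 of them by at least 1 (12.5% of the 30310 loci), and it lay within 0.5 of harvest in 23. The counts of 28 and 5 were the same with all 4 scalings and both other pseudocounts. After shelf life, which the rule bounds only loosely, the median was 0.14, with 17 loci above harvest and 16 below. That balance depends on the scaling of the columns. The members above harvest numbered 24 with the 75th percentile or the trimmed mean, 25 with quantile normalization and 18 with equal FPKM sums, and the medians were 0.42, 0.50, 0.57 and 0.15 in that order. Over the 30310 loci the medians as deposited were -0.12 after cold storage and -0.36 after shelf life. Of these loci 12566 were above harvest and 17744 below after cold storage, and 8546 and 21764 after shelf life. Control fruit were above harvest at both times in 16 members, above after cold storage and below after shelf life in 12, below at both times in 4, and below and then above in 1, CUFF.7927. With equal trimmed means these counts were 23, 5, 4 and 1. In 10 members both control values lay within 0.5 of harvest. That count was 7 with a pseudocount of 0.1 and 25 with one of 5. The 23 within 0.5 after cold storage became 18 with quantile normalization and 31 with a pseudocount of 5. How many of the 30310 loci lay within 0.5 or followed each of these courses was not counted.

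A rise "only with 1-MCP" is a matter of the threshold set, also after cold storage. In FPKM, control fruit over harvest had a median ratio of 1.20 at that time, and it ran from 0.106 to 2.34. The ratio of 2.34 was that of CUFF.3224, MDP0000358827 and MDP0000358829, which share their values, and MDP0000315201 stood at 1.90. After shelf life the ratio had a median of 1.12 and ran from 0.118 to 2.74. On the log2 scale 8 members were then at 0.75 or more above harvest in control fruit too, a size not counted over all loci. Of the members 1 passed 1 (6.37% of the 30310 loci did), while 3 were lower than harvest by at least 1 (20.4% of the loci). These counts depend on the processing, with 12 members past 1 with equal trimmed means, 8 with a pseudocount of 0.1 and 0 with a pseudocount of 5. Those lower by at least 1 numbered 2, 5 and 2 in that order. The member past 1 as deposited was CUFF.11007 (MDP0000612884), at 14.4 and 10.4 FPKM in 1-MCP fruit, at 3.40 and 7.09 FPKM in control fruit and at 2.96 FPKM at harvest. CUFF.29978 (MDP0000298166) was similar, at 8.52 and 7.67 FPKM in 1-MCP fruit, at 2.47 and 4.75 FPKM in control fruit and at 1.92 FPKM at harvest. In these 2 loci the treatments were closer after shelf life than before it, with a higher control value and a lower treated value, though quantile normalization put the treated difference of CUFF.29978 over shelf life at 0.02.

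The 4 members below harvest at both times in control fruit were CUFF.47845, MDP0000758881, MDP0000477621 and CUFF.41106. CUFF.41106, with gene models MDP0000454404 and MDP0000454405, is the least abundant of them. It stood at 12.2 and 7.80 FPKM in 1-MCP fruit, at 0.482 and 0.450 FPKM in control fruit, and at 1.18 FPKM at harvest. The precision of such low control values is not known. These 4 loci also had the 4 largest differences between treatments after cold storage, which ran from 3.16 to 6.71 on the log2 scale.

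**Figure D3:**
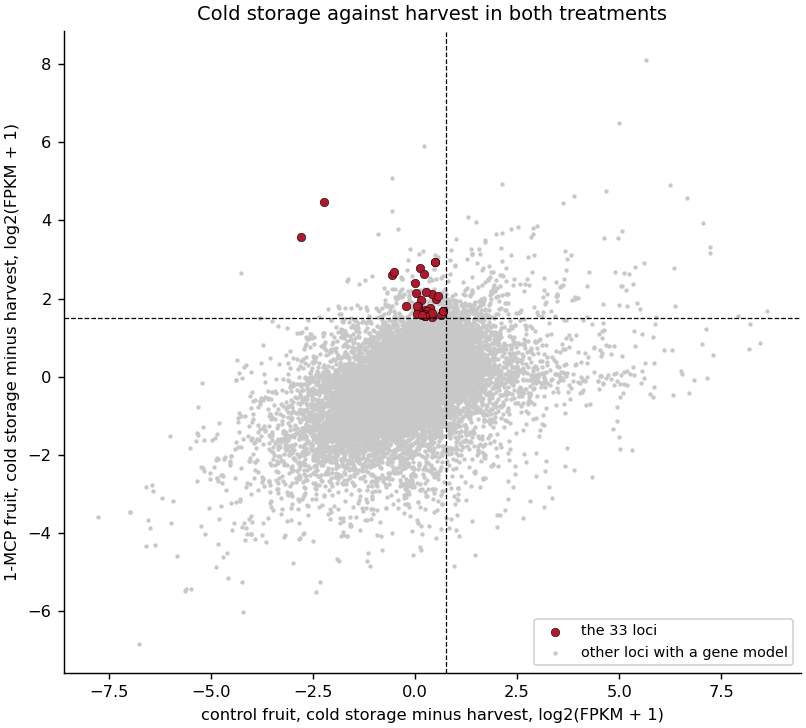
Difference of log2(FPKM + 1) between cold storage and harvest in control fruit (x axis) and 1-MCP fruit (y axis) for the 30310 loci that could be chosen, with the 33 loci in red and dashed lines at the conditions of 0.75 and 1.5. Of the red points 28 sit between 0 and 0.75 on the x axis, and CUFF.47845 and MDP0000758881 stand apart at -2.23 and -2.79.

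Set against control fruit of the same time, the members were higher in 1-MCP fruit throughout. The log2 difference had a median of 1.64 after cold storage (range 0.93 to 6.71) and 1.88 after shelf life (0.50 to 7.20), and it was above 0 in all 33 at both times. The rule fixes that sign after cold storage, and it leaves little room for another after shelf life. It also sets much of the size after cold storage. There 1-MCP fruit had to exceed harvest by at least 1.5, and control fruit had to exceed it by less than 0.75. After shelf life the size is bounded more loosely. The next counts of members therefore cannot be read as an enrichment over all loci. A difference of at least 1 was held by 29 members after cold storage, where 8.9% of all 30310 loci held one, and by 30 after shelf life, where 12.7% did. With identical rows counted once these were 28 and 27 of 30. Both times passed 1 in 26 members and 2 in 9. With the columns scaled to equal trimmed means of their ratios, the members' medians were 1.45 and 1.64. Over the 30310 loci the median was 0.09 after cold storage and 0.23 after shelf life, and -0.08 and -0.02 with that scaling.

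Among the members the gap between treatments widened over shelf life about as often as it narrowed. It was larger after shelf life than after cold storage in 17 members and smaller in 16. These counts were 15 and 18 with quantile normalization, and 19 and 14 with a pseudocount of 5. The rule holds the change over shelf life below 1 in each treatment. The split over all loci was not counted, so nothing particular to the members can be read from it. The smallest gaps after shelf life were those of CUFF.11007 (0.50), CUFF.29978 (0.59) and CUFF.3459 (0.96). CUFF.3459 (MDP0000648927) stood at 27.3 and 28.5 FPKM in 1-MCP fruit, at 11.1 and 14.2 FPKM in control fruit, and at 8.07 FPKM at harvest. Its treated level after shelf life was 1.05 times that after cold storage, and its control level 1.28 times.

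**Figure D4:**
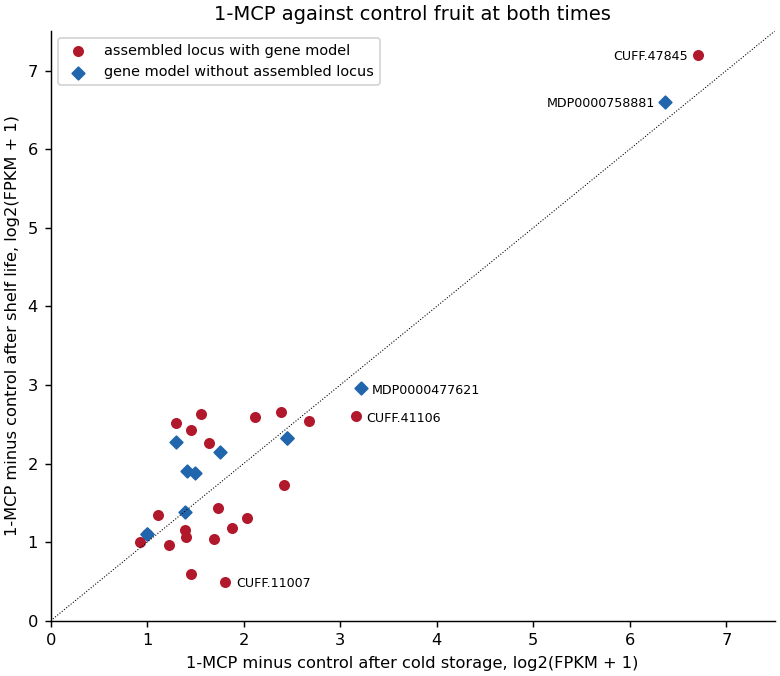
Difference of log2(FPKM + 1) between 1-MCP and control fruit after cold storage (x axis) and after shelf life (y axis) for the 33 loci, with circles for assembled loci, diamonds for gene models without an assembled locus, and a dotted line where the 2 differences are equal. The points lie on both sides of the line, 17 above and 16 below, with CUFF.47845 and MDP0000758881 beyond 6 on both axes.

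Shelf life itself went with small differences, since the rule held them below 1 in each treatment. In 1-MCP fruit 18 members were higher after shelf life than after cold storage and 15 lower, with a median of 0.06 and 25 of them within 0.5. In control fruit 17 were higher and 16 lower, also with a median of 0.06. Over all 30310 loci the medians were -0.13 and -0.24, and 4.5% of loci in 1-MCP fruit and 8.08% in control fruit were lower by at least 1. Of the 30310 loci, 10591 were higher after shelf life in 1-MCP fruit and 8765 in control fruit. The direction was the same in both treatments at 20 of the 33 members and opposite at 13. How many of the 30310 loci shared a direction was not counted, so nothing about the members can be read from this. With the 4 scalings the members higher after shelf life numbered 17 to 21 in 1-MCP fruit and 16 to 21 in control fruit.

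Among members reaching 5 FPKM, the largest positive differences over shelf life in 1-MCP fruit were those of CUFF.8442 (MDP0000233392), MDP0000363101 and MDP0000758881. CUFF.8442 stood at 3.18 and 6.65 FPKM in 1-MCP fruit after cold storage and after shelf life, at 0.414 and 0.235 FPKM in control fruit, and at 0.361 FPKM at harvest. MDP0000363101 stood at 34.6 and 54.3 FPKM in 1-MCP fruit, at 13.5 and 10.4 FPKM in control fruit, and at 11.2 FPKM at harvest. In CUFF.8442 and MDP0000363101 control fruit were lower after shelf life than before it, the opposite of treated fruit.

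At the other end were CUFF.40232, MDP0000477621 and CUFF.48323. CUFF.40232 (MDP0000207984) stood at 7.22 and 3.22 FPKM in 1-MCP fruit, at 0.541 and 0.279 FPKM in control fruit, and at 0.330 FPKM at harvest. CUFF.48323 (MDP0000144477) stood at 20.9 and 12.6 FPKM in 1-MCP fruit, at 3.17 and 1.16 FPKM in control fruit, and at 3.16 FPKM at harvest. Both treatments were lower after shelf life in these loci. CUFF.8442 and CUFF.40232 were below 1 FPKM in control fruit and at harvest, where the precision of a value is not known.

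Each condition of the rule set loci aside. Of the 30310 loci, 527 were at least 1.5 above harvest in 1-MCP fruit after cold storage, 159 also after shelf life, and 141 of these differed by less than 1 between the 2 times. At 94 of the 141 control fruit after cold storage were 0.75 or more above harvest as well, and at 55 of the 94 they were at least 1.5 above it. Of the other 47, 14 differed by 1 or more over shelf life in control fruit, 8 of them higher after shelf life and 6 lower, which left the 33.

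Near each condition, the loci inside and outside lay close together in the difference that the condition bounds, but not in their other values. For 1-MCP fruit after cold storage, just inside the 1.5 condition at a mean of 5 FPKM or more lay CUFF.24785 (1.54), MDP0000363101 (1.55) and CUFF.1252 (1.55). Just outside lay CUFF.16685 (1.42), CUFF.8920 (1.41) and MDP0000345239 (1.40). Control fruit after cold storage were above harvest at these loci inside, by 0.25 to 0.42 on the log2 scale. At those outside, their differences from harvest ran from -1.75 to -0.29. CUFF.16685 (MDP0000330240) stood at 190 and 212 FPKM in 1-MCP fruit, at 57.3 and 96.9 FPKM in control fruit, and at 70.2 FPKM at harvest. On the side of control fruit and at the same mean level, CUFF.8580 (0.65), CUFF.25849 (0.52) and MDP0000187568 (0.48) lay inside the 0.75 condition, and CUFF.5842 (0.76), CUFF.24409 (0.80) and CUFF.9773 (0.80) outside it. CUFF.5842 (MDP0000761756) stood at 80.6 and 95.8 FPKM in 1-MCP fruit, at 44.5 and 66.5 FPKM in control fruit, and at 25.9 FPKM at harvest. CUFF.8580 (MDP0000121258), the nearest member at that mean level, stood at 18.8 and 18.2 FPKM in 1-MCP fruit, at 9.41 and 8.58 FPKM in control fruit, and at 5.65 FPKM at harvest.

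The kind of locus was not part of the rule beyond the need for a gene model. Assembled loci with a gene model made up 22 of the 33 members (66.7%) and 77.6% of the 30310 loci, and the other 11 members were gene models without an assembled locus. Several gene models were carried by 4 members (12.1%), against 531 of the 30310 loci (1.75%). Besides CUFF.7927, CUFF.41106 and CUFF.3224, this was CUFF.25849 (MDP0000623979 and MDP0000623980), at 16.9 and 21.0 FPKM in 1-MCP fruit, at 5.53 and 3.08 FPKM in control fruit and at 3.55 FPKM at harvest. In CUFF.25849 treated fruit were higher than harvest at both times, while the difference of control fruit from harvest after shelf life was -0.16 as deposited and 0.16 with equal trimmed means. With 4 loci, no more than the count can be given.

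The same thresholds turned round picked more loci. The 33 loci are 0.109% of the 30310. With the signs turned, that is lower than at harvest in 1-MCP fruit only, the conditions picked 234 (0.772%). With the treatments swapped, that is higher in control fruit only, they picked 290 (0.957%). At 35 loci (0.115%) both treatments were at least 1.5 above harvest after cold storage, with shelf-life differences below 1. The 33 loci stayed fewer than each of the 2 larger sets with all 4 scalings and both pseudocounts tried. Assembled loci made up 37.2% of the 234 loci lower with 1-MCP only, 53.1% of the 290 higher in control fruit only and 68.6% of the 35 higher in both. These sets share columns with the 33 loci, and the differences between them were not tested.

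Further loci showed the pattern outside the 33. The members were 0.109% of the loci with a gene model, while 76 of 11977 assembled loci without one (0.635%) met all other conditions. That number was 46 with equal FPKM sums, 173 with a pseudocount of 0.1 and 25 with a pseudocount of 5. The most abundant of the 76 in 1-MCP fruit, CUFF.23207, stood at 642 and 734 FPKM in 1-MCP fruit, at 351 and 180 FPKM in control fruit, and at 221 FPKM at harvest. Unannotated loci were higher as a class in 1-MCP fruit, with a median log2 difference of 0.43 from control fruit and 0.19 from harvest after cold storage. The first of these medians ran from 0.24 with a pseudocount of 5 to 0.53 with a pseudocount of 0.1 and was 0.28 with equal trimmed means. The part of this class difference in the count of 76 was not tested.

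Gene models listed at 0 in some group were left out by the rule, and 11 of them met every other condition. None of the 11 had an assembled locus, and 8 were listed at 0 in control fruit at both times and at harvest. MDP0000361238 stood at 424 and 528 FPKM in 1-MCP fruit after cold storage and after shelf life and was listed at 0 in the other 3 groups. MDP0000336114 stood at 42.7 and 48.7 FPKM in 1-MCP fruit and was likewise listed at 0 in the other 3. Both were picked with their values known. A 0 in this table cannot be read as absence. Of 543 loci with a gene model that were set apart for a 0, 32 were listed at 0 at harvest alone, and the highest value among these in another group was 120570 FPKM.

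**Figure D5:**
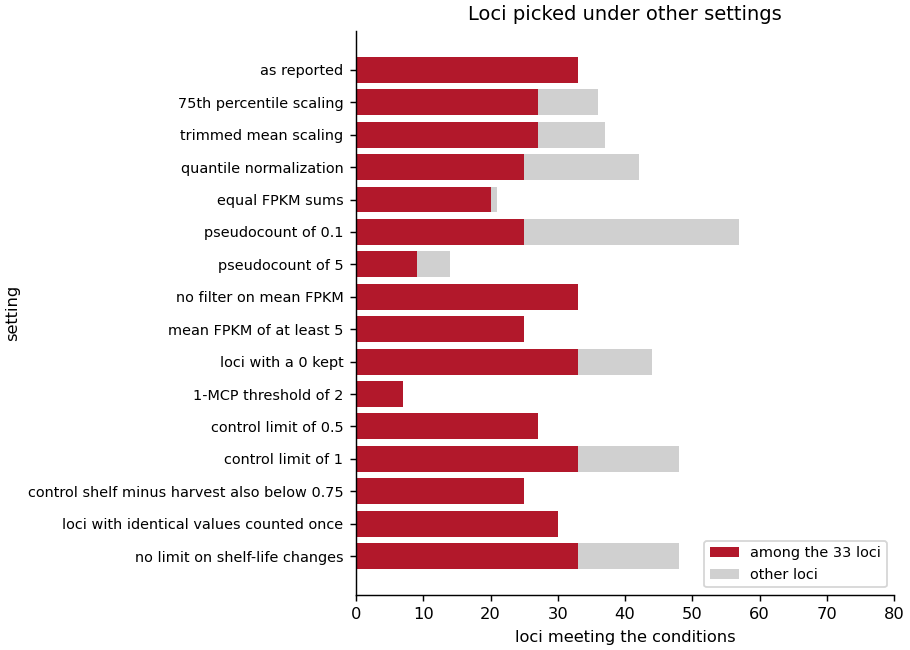
Number of loci (x axis) that met the conditions as reported and under each other setting tried (y axis) except a 1-MCP condition of 1, which gave 214, with loci among the 33 in red and other loci in grey. The pseudocount of 5 keeps 9 of the 33 and equal FPKM sums keep 20.

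Which loci were picked depended on how the columns are scaled and on the pseudocount. After scaling by the 75th percentile 27 of the 33 still met the conditions, and by trimmed mean also 27, while quantile normalization kept 25 and equal FPKM sums 20. All 4 scalings kept 17, and the 4 scalings with both other pseudocounts kept 7. The 7 were CUFF.47845, MDP0000758881, MDP0000477621, CUFF.3904, CUFF.12454, MDP0000119680 and MDP0000187568, of which the last 2 have the same values.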

How the data were processed

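RNA from apple skin was sequenced from non-directional TruSeq libraries on an Illumina HiSeq instrument, per the labels' protocols. The authors deposited FPKM values for 80965 loci, with 1 column per group and decimal commas, per the file headers. TopHat2, Cufflinks and Cuffdiff are named in the submitters' processing notes, without versions; which genome build and annotation were used is not stated there. The headers do not say whether a column stands for all 3 libraries of its group. Depth is unknown.

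Groups were taken from the sample titles and matched to the column names. Differences of log2(FPKM + 1) were computed in Python 3.11.15 with pandas 2.3.3 and numpy 2.4.6, and the selection was tested on simulated data. Planned fits with limma, which need values per library, were not run. Alternatives were 4 scalings of the columns, pseudocounts of 0.1 and 5, and other filters and thresholds. The members, lists and rules were chosen with earlier results of these data known. Named loci were fixed as the 8 members with the largest smaller difference from harvest, the 6 most abundant, the 4 lowest and the 4 highest in control fruit, the 3 at each end of the shelf-life and the 3 smallest treatment differences, the 4 most abundant with several models, and those nearest the conditions. CUFF.23207, the set with treatments swapped and the counts of directions under other settings were chosen after values were seen.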

Additional observations from a re-analysis of the deposited data

Results flagged for a closer look

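Among the members, 2 loci had differences from harvest of at least 1 in opposite directions in the 2 treatments after cold storage. Loci outside the members did so too, such as CUFF.10229, at 2.455 in 1-MCP fruit and -1.664 in control fruit. How many of all loci did so was not counted. MDP0000758881 had a log2 difference from harvest of 3.58 in 1-MCP fruit and -2.79 in control fruit, and CUFF.47845 one of 4.49 in 1-MCP fruit and -2.23 in control fruit. MDP0000477621, CUFF.41106 and CUFF.7927 were also above harvest in 1-MCP fruit and below it in control fruit, there by less than 1. Each group has 1 value, so the difference between the treatments was not tested.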

How the results depend on the processing

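No paired analysis was possible because only values per group, and none for single libraries, are in the table, and for the same reason no replicate could be left out. The 33 loci numbered 21 with equal FPKM sums, 57 with a pseudocount of 0.1, 14 with a pseudocount of 5, 214 with a 1-MCP condition of 1 and 7 with one of 2. A lower threshold admits loci by construction, while the pseudocount of 0.1 lost 8 of the 33 and gained 32. The other settings gave 25 to 48. With the pseudocount of 5, chosen for the related sets after the data were seen, the loci lower with 1-MCP only numbered 111, those higher in control fruit only 190 and those higher in both treatments 18, and the pseudocount of 0.1 gave 57 for the last. The pseudocount of 5 also brought the share of assembled loci among those picked to 42.9% and the members' median difference of 1-MCP from control fruit after shelf life to 1.15. The other 47 of 48 medians moved by less than 1.5-fold. Of 1008 values of the 21 named members under scalings and pseudocounts, 61 moved by more than 1.5-fold, all 61 under a pseudocount, and 0 with a size of at least 1 changed sign. With unknown depth, the error of low FPKM values is unknown too.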
